A study of Mus musculus with 16 samples.

Results

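The 54 genes described here are nuclear genes that encode subunits of the mitochondrial respiratory chain, 33 of complex I, 4 of complex II, 7 of complex III and 10 of complex IV. They were taken from a list of subunit names matched to the Ensembl IDs of the count table. The rule uses no measured value, but the list was drawn up with earlier results of these data known. All 54 were found among the 40472 genes of the table, and all 54 passed the filter on low counts that left 13614 genes for testing. The lowest count of any of them was 3, for Ndufa12 in 1 library, and 50 had at least 10 counts in every library.

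The respiratory chain sits in the inner mitochondrial membrane and passes electrons from NADH (complex I) or succinate (complex II) through ubiquinone to complex III, then by cytochrome c to complex IV, which reduces oxygen. Complexes I, III and IV pump protons as they do so, and ATP synthase uses the gradient. Complex II is built from nuclear genes only, whereas the other complexes combine nuclear subunits with a few made from the mitochondrial genome, so their assembly needs both sets of mRNA. In the kidney the proximal tubule is packed with mitochondria and relies on oxidative phosphorylation for reabsorption, which is why it is sensitive to a stop of blood flow.

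Whole kidneys of male C57BL/6 mice, 12 weeks old, were profiled by sequencing of poly(A) RNA, in 4 groups of 4 libraries. The uninjured groups were NV, given vehicle, and NP, given PJ34, which inhibits poly(ADP-ribose) polymerases. The injured groups, IRV with vehicle and IRP with PJ34, had ischemia reperfusion surgery of the kidney, a stop of its blood supply followed by return of flow. The study's stated aim for these groups was the later effect of the inhibitor; the labels give neither the day of collection nor the dose. They number the replicates without stating that each is a separate mouse, so p-values measure the spread between libraries. Library totals ran from 973812 to 6169748 counts. All IRP libraries and IRV replicates 3 and 4 had at least 4963638 counts (deep), and the other 10 libraries had at most 1659983 (shallow). The sets differed in content as well: genes of the chemosensory receptor families (olfactory, vomeronasal, taste, trace amine) summed to 338.8 to 657.7 CPM (counts relative to the library total) in the deep libraries and 5279 to 10330 in the shallow ones. Pairs of IRV libraries from different sets differed by 61.4 to 103 times sampling noise (chi-square per degree of freedom over genes). The IRV pairs within a set differed by 7.96 and 8.91 times. Pairs of IRP libraries, all of the deep set, differed by 4.77 to 52.9 times, the most between replicates 1 and 2. Proximal tubule markers (10 genes, among them Slc34a1 and Lrp2) had no gene at 0 in any library, and all 4 muscle markers were below the filter.

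Promoters of the members were read from RefSeq (build GRCm38.p6), an older build than that of the counts and used for sequence only, as windows of 300 bases that start 250 before each gene's start; 44 of the 54 had an entry. They are shown because the mRNAs of all 4 complexes shifted in the same direction in the injured kidneys, as described below, and because NRF1, a nuclear transcription factor, is known for driving many respiratory chain genes. The letters GCGCANGCG, an NRF1 motif, were present on either strand in 12 of the 44 (27.3%), against 7.03% of 27025 genes with a window. For YY1 (AAGATGGCG) the shares were 9.09% (4 members) and 1.64%, and for ETS factors such as GABP (CCGGAAGT) 6.82% (3 members) and 4.31%. For ERR (TCAAGGTCA) they were 2.27%, which is 1 member (Sdhd), and 0.466%. The 27025 genes were not limited to those expressed in these kidneys. Member windows also had a higher median GC content (59.2% against 52.7%), and the part of base composition in these shares was not tested. A match is a run of letters and no evidence of binding. For each complex, the member window with the most NRF1 matches is printed 5′ to 3′ along its gene, with the matches in capitals. These are Ndufb4 (chr16:37654319-37654618 on the minus strand), Sdha (chr13:74350191-74350490 on the minus strand), Uqcrc1 (chr9:108936398-108936697 on the plus strand) and Cox6a1 (chr5:115348909-115349208 on the minus strand).
Ndufb4: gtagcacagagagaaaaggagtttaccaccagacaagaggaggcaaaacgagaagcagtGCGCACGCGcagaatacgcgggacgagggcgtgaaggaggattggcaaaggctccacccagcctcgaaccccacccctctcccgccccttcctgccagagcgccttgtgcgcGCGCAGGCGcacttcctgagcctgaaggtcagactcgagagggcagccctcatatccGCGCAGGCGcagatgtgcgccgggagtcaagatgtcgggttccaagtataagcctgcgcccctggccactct
Sdha: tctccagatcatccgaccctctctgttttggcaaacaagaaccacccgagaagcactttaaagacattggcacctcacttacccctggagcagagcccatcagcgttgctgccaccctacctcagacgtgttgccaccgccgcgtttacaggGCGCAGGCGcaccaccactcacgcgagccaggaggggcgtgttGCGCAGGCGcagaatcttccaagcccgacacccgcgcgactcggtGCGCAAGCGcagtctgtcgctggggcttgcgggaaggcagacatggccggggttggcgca
Uqcrc1: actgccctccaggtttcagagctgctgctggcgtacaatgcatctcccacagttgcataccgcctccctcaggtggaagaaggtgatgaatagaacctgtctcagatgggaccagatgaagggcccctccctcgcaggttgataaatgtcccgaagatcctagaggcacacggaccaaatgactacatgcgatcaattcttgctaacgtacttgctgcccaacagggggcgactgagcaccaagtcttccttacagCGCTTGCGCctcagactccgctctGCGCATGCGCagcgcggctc
Cox6a1: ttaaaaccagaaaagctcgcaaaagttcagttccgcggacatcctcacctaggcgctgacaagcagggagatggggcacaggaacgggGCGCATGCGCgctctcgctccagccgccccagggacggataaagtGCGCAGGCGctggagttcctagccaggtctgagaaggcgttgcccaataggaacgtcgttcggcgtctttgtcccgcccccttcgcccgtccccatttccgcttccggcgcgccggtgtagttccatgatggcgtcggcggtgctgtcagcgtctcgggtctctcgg
Ndufb4 has 3 separate stretches, beginning 191, 79 and 22 bases before the gene's start, and Sdha has 3, beginning 98, 55 and 10 bases before it. In Cox6a1 and Uqcrc1 3 matches merge into 2 stretches, since matches on opposite strands overlap; those of Cox6a1 begin 162 and 117 bases before the start and those of Uqcrc1 lie 6 and 30 bases after it.

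Ischemia reperfusion with vehicle was accompanied by lower mRNA of nearly the whole set. Against NV, 49 of the 54 members fell in IRV and none rose, where 11.1% of all genes tested fell and 15.9% rose (edgeR, adjusted p under 0.05). The median log2 change of the members was -0.76, against -0.03 over all genes tested, and the members ranged from -1.57 (Ndufb4) to -0.38 (Ndufa7). Summed over the 54 genes, the level was 5660 ± 310.5 CPM in NV against 3202 ± 531 CPM in IRV (SD, n = 4). By library the sum was 5805, 5197, 5861 and 5776 CPM in NV replicates 1 to 4 and 2508, 3762, 3124 and 3413 CPM in IRV replicates 1 to 4. On this scale, described below, the groups did not overlap. As a share of all counts they did, with 0.390% to 0.486% in NV and 0.251% to 0.433% in IRV. In 43 of the 54 members every IRV library was below every NV library, which held for 11.9% of all genes tested. Whole tissue was measured, so fewer cells of a type and less RNA per cell cannot be told apart.

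The size of this change depends on the scale. CPM values here use TMM scaling, which centres the bulk of genes. With library totals alone the median of all genes tested moved to 0.49 in IRV against NV and 0.57 in IRP against NP. On that scale 11 members fell in IRV against NV (1.81% of all genes), with a member median of -0.26 and 3 members above 0. In IRP against NP it was 2 members (13.1% of all genes), with a median of -0.03 and 24 members above 0. Without the low-count filter, where TMM used all 40472 genes, 16 members fell with vehicle (1.48% of all genes) and 3 with PJ34 (27.0% of all genes). With TMM and with library totals, both after the filter, the member median lay below that of all genes tested. The members' share of all counts was 0.456% ± 0.0333 in NP and 0.464% ± 0.0357 in IRP.

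**Figure D1:**
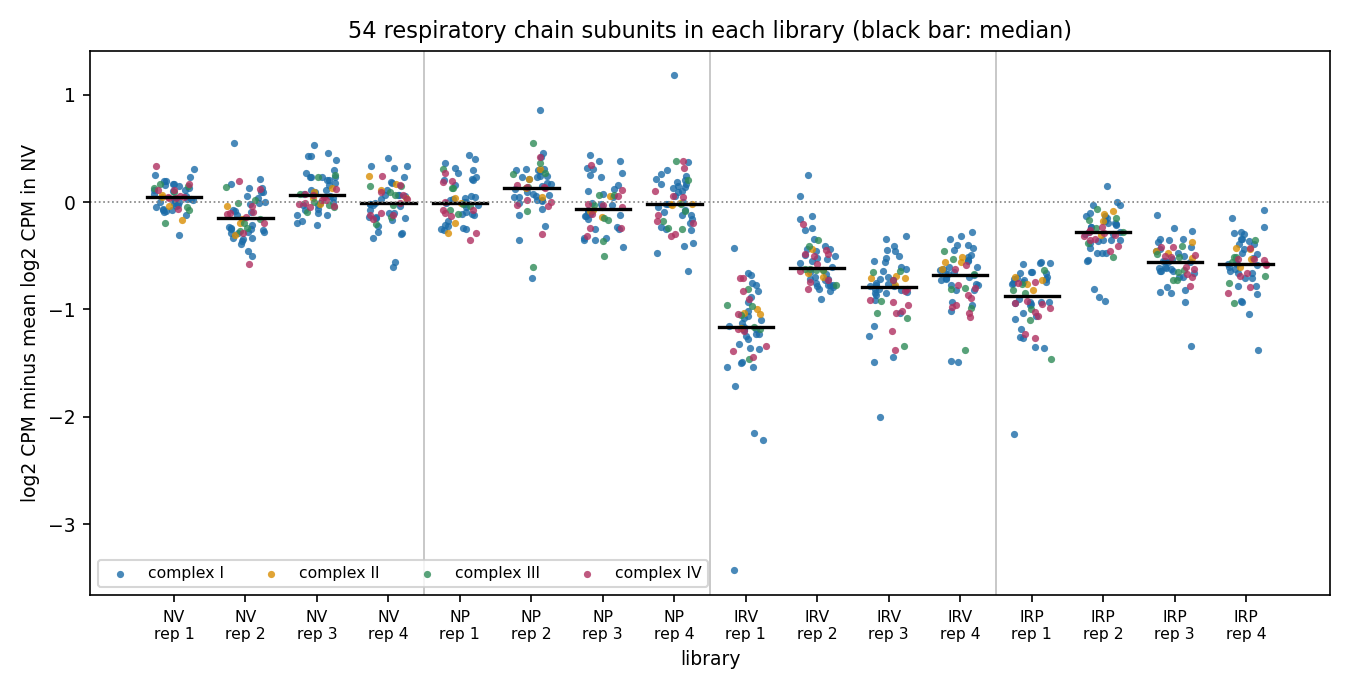
Log2 CPM (TMM-scaled) of each of the 54 subunits minus its mean in NV, in each of the 16 libraries; points are genes coloured by complex and black bars are library medians. Medians lie between -0.15 and 0.13 in the 8 uninjured libraries and between -1.16 and -0.28 in the 8 injured ones; with library totals alone 24 members are above 0 in IRP against NP.

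Complex I, the NADH dehydrogenase, had 28 of its 33 listed members lower in IRV than in NV, with a median log2 change of -0.75. Its 6 listed core subunits, which include the flavin and iron-sulphur subunits, all fell (median -0.74), and 22 of its 27 accessory subunits fell (median -0.75). Ndufs1, the largest core subunit, was at 211, 238, 216 and 208 CPM in NV and 77.1, 132, 116 and 134 CPM in IRV, a log2 change of -0.91 ± 0.15 (SE, adjusted p = 0.0003384). All 4 IRV libraries lay well below NV, and replicate 1 was the lowest. Ndufb10, an accessory subunit of the membrane arm, had the smallest p of complex I. It was at 132, 131, 143 and 124 CPM in NV and 45.2, 75.4, 55.4 and 67.7 CPM in IRV (log2 change -1.11 ± 0.17, adjusted p = 0.0002431), with no overlap. Ndufb4, another membrane arm subunit and the first of the promoters above, had the largest change of the set. It was at 64.1, 96.6, 56.7 and 53.3 CPM in NV and 14.4, 38.3, 16.1 and 23.1 CPM in IRV (log2 change -1.57 ± 0.32, adjusted p = 0.001593). The highest NV library, replicate 2, was the library in which the summed members were lowest within NV.

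The 5 members that did not pass the test in IRV against NV were all accessory subunits of complex I. Ndufa7 was at 23.9, 23.9, 27.0 and 14.7 CPM in NV and 13.4, 26.1, 13.8 and 16.4 CPM in IRV, and the groups overlapped (log2 change -0.38 ± 0.23, adjusted p = 0.2406). Ndufa12 had 3.08, 25.5, 30.7 and 23.5 CPM in IRV against 30.6 to 56.7 CPM in NV (log2 change -0.80 ± 0.33, adjusted p = 0.07845). Its value in IRV replicate 1 rests on the 3 counts named above. Ndufa1, Ndufa11 and Ndufb11 had log2 changes of -0.45, -0.58 and -0.44 with adjusted p of 0.2681, 0.1016 and 0.06123. With library totals alone Ndufa1 (0.08), Ndufa7 (0.14) and Ndufb11 (0.08) turned positive.

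Complex II, succinate dehydrogenase, links the chain to the citric acid cycle, and all 4 of its subunits fell within a narrow range of -0.76 to -0.67. Sdhd, a membrane anchor, was at 109, 109, 115 and 115 CPM in NV and 54.5, 70.5, 65.6 and 78.7 CPM in IRV (log2 change -0.72 ± 0.12, adjusted p = 0.0005594). Sdhb, the iron-sulphur subunit, was at 114, 114, 136 and 151 CPM in NV and 61.7, 94.2, 79.1 and 86.5 CPM in IRV (log2 change -0.67 ± 0.16, adjusted p = 0.006197). Both separated the groups completely, with the NV libraries closest together for Sdhd.

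Complex III, the cytochrome bc1 complex, had all 7 listed members lower, with a median of -0.84 and a range of -1.25 to -0.59. Uqcrq, a small accessory subunit, was at 73.5, 78.4, 91.8 and 67.2 CPM in NV and 27.8, 45.0, 30.2 and 29.3 CPM in IRV (log2 change -1.25 ± 0.21, adjusted p = 0.0004359). IRV replicate 2 stood above the other 3 IRV libraries. Uqcrc2, a core protein, changed least, with 246, 224, 269 and 283 CPM in NV and 130.5, 200.0, 163 and 184 CPM in IRV (log2 change -0.59 ± 0.14, adjusted p = 0.006233). The catalytic subunits Cyc1 (cytochrome c1) and Uqcrfs1 (the Rieske iron-sulphur protein) changed by -0.84 and -0.88, and Uqcrb and Uqcrh, both accessory, by -0.97 and -0.59.

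Complex IV, cytochrome c oxidase, had all 10 listed members lower, with a median of -0.87 and a range of -1.06 (Cox7b) to -0.66 (Cox7a2). Cox4i1, the ubiquitous isoform of the regulatory subunit 4, was at 308, 274, 306 and 293 CPM in NV and 108, 168, 157 and 173 CPM in IRV (log2 change -0.95 ± 0.15, adjusted p = 0.0002143). No IRV library came near the NV range. Cox7a2, a small subunit, was at 60.7, 64.1, 58.5 and 52.5 CPM in NV and 32.9, 51.0, 28.4 and 38.1 CPM in IRV (log2 change -0.66 ± 0.20, adjusted p = 0.01883), with IRV replicate 2 just under the lowest NV library. The medians of the 4 complexes lay between -0.87 and -0.73, inside the range of single members of complex I, and no test was made between complexes.

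The same comparison with PJ34 in both arms gave the same direction for every member. Against NP, 49 of the 54 members fell in IRP and none rose, where 24.0% of all genes tested fell and 19.6% rose, and the member median was -0.59 against -0.01 over all genes tested. Complex I had 28 of 33 lower (median -0.60), complex II 4 of 4 (-0.47), complex III 7 of 7 (-0.61) and complex IV 10 of 10 (-0.63). The summed level was 5657, 6064, 5370 and 5500 CPM in NP replicates 1 to 4 and 2993, 4659, 3825 and 3777 CPM in IRP replicates 1 to 4. All IRP sums were below all NP sums on the TMM scale, with IRP replicate 2 highest and replicate 1 lowest. In 38 of the 54 members every IRP library was below every NP library (21.2% of all genes tested). Without IRP replicate 2, 50 members fell and the median was -0.69, against -0.02 over all genes tested. The share of all genes that fell in that fit was not counted, so the count of 50 has no baseline.

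Single members showed the same pattern, with IRP replicate 2 closest to NP. Cox4i1 was at 281, 299.8, 307 and 260.1 CPM in NP and 155, 237, 209 and 195 CPM in IRP (log2 change -0.53 ± 0.14, adjusted p = 0.007201). Ndufb10 was at 113, 122, 99.0 and 141 CPM in NP and 51.6, 90.4, 81.5 and 69.5 CPM in IRP (log2 change -0.70 ± 0.17, adjusted p = 0.003094). Uqcrq was at 75.0, 72.9, 54.4 and 67.9 CPM in NP and 27.8, 59.1, 46.3 and 40.1 CPM in IRP (log2 change -0.65 ± 0.20, adjusted p = 0.01446). For Cox4i1 and Ndufb10 the groups were apart, and for Uqcrq IRP replicate 2 lay above NP replicate 3. Sdhd was at 91.3, 123, 107 and 110.1 CPM in NP and 68.5, 90.0, 86.3 and 82.5 CPM in IRP (log2 change -0.40 ± 0.12, adjusted p = 0.01328). IRP replicate 2 reached just below the lowest NP library. With library totals alone the changes of Cox4i1 (0.04) and Sdhd (0.17) turned positive. Sdhb, Uqcrc2 and Cox7a2 changed by -0.50, -0.51 and -0.67, and with library totals alone Sdhb (0.06) and Uqcrc2 (0.05) turned positive too. Ndufb4 again had the largest change, with 89.4, 51.3, 52.2 and 49.2 CPM in NP and 14.3, 34.6, 25.6 and 24.9 CPM in IRP (log2 change -1.29 ± 0.30, adjusted p = 0.002579).

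The IRP comparison also carries the difference between the library sets in depth and content, because all 4 libraries of IRP belong to the deep set and all 4 of NP to the shallow one, and the IRV group holds libraries of both. With the set as a covariate, an estimate that rests on the IRV libraries of both sets, the median of the members stayed at -0.59 and 1 member passed the test (0.786% of all genes), so the library set and this comparison cannot be told apart. For IRV against NV the covariate left 41 members lower (6.13% of all genes). All NV libraries are shallow, so the change in that fit rests on IRV replicates 1 and 2. The shallow libraries alone, with these same IRV replicates, gave 40 members lower (6.79% of all genes) with a median of -0.83. These 2 results are therefore not separate checks.

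**Figure D2:**
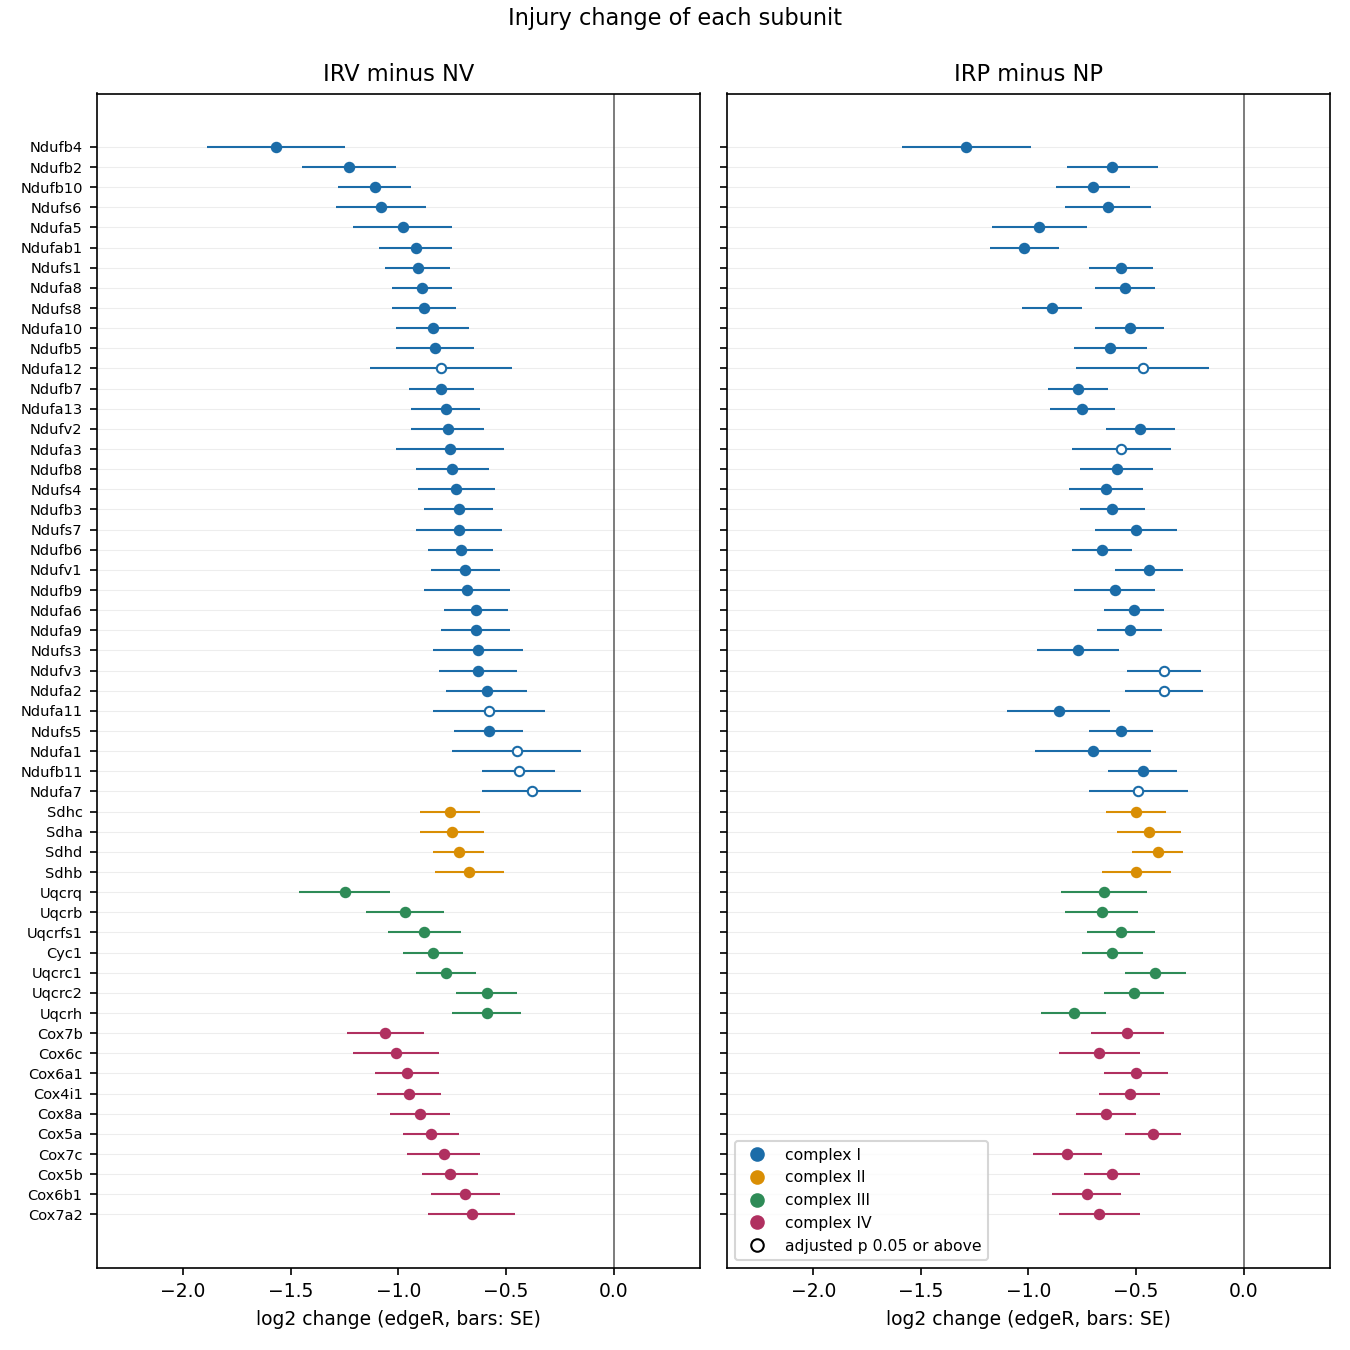
Log2 change of each subunit (points, bars are the standard error) in IRV against NV and in IRP against NP, ordered by size within each complex; open points did not pass the test. All 54 points lie below 0 in both panels, from -1.57 to -0.38 on the left and from -1.29 to -0.37 on the right; with library totals alone 3 and 24 of them lie above 0.

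The calls of the 2 comparisons overlapped in 46 members, which is 93.9% of each list; lower in both were 7.75% of all genes tested. Ndufa2, Ndufa3 and Ndufv3 passed only with vehicle, Ndufa1, Ndufa11 and Ndufb11 only with PJ34, and Ndufa7 and Ndufa12 in neither. All 8 are accessory subunits of complex I. Ndufa2 was at 29.9, 28.7, 24.3 and 20.1 CPM in NV against 12.3, 13.4, 18.3 and 20.3 CPM in IRV. With PJ34 it was at 29.8, 25.3, 23.9 and 21.1 CPM in NP and 16.9, 22.3, 17.2 and 20.9 CPM in IRP. Its log2 changes were -0.59 with vehicle and -0.37 with PJ34 (adjusted p = 0.104 for the latter). Both pairs of groups overlapped. Ndufa3 was at 28.2, 26.8, 36.01 and 17.0 CPM in NV against 5.14, 18.2, 19.4 and 15.5 CPM in IRV, which overlapped through NV replicate 4. With PJ34 the values were 33.6, 30.5, 32.6 and 30.5 CPM in NP and 17.4, 23.0, 20.6 and 24.9 CPM in IRP. It changed by -0.76 and -0.57 (adjusted p = 0.06072 for the latter), and its NP and IRP libraries did not overlap although the test was missed. Ndufv3, which sits by the flavoprotein part, was at 79.5, 62.2, 87.3 and 74.9 CPM in NV against 31.9, 55.3, 48.9 and 55.6 CPM in IRV, with no overlap. In NP it was at 93.2, 72.2, 64.2 and 69.5 CPM and in IRP at 44.2, 70.1, 58.1 and 58.6 CPM, and the log2 changes were -0.63 and -0.37. IRP replicate 2 overlapped the NP libraries.

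The 3 members that passed only with PJ34 had overlapping vehicle groups. Ndufa1 was at 22.2, 16.3, 27.0 and 16.2 CPM in NV and 9.25, 18.2, 15.9 and 14.4 CPM in IRV. With PJ34 it was at 18.3, 20.8, 26.1 and 46.1 CPM in NP and 11.6, 22.3, 18.4 and 16.9 CPM in IRP (log2 change -0.70, adjusted p = 0.04359). Its NP replicate 4 was far above the other 3. Ndufa11 was at 23.1, 18.2, 18.9 and 27.0 CPM in NV and 6.17, 22.5, 14.5 and 13.8 CPM in IRV. Its levels with the inhibitor were 25.0, 26.8, 29.4 and 25.0 CPM in NP and 12.7, 17.6, 11.0 and 17.4 CPM in IRP (log2 change -0.86, adjusted p = 0.008347). The PJ34 groups were apart and the vehicle groups overlapped through IRV replicate 2. Ndufb11 was at 42.8, 36.3, 51.3 and 45.6 CPM in NV and 25.7, 36.5, 31.8 and 34.3 CPM in IRV. In the PJ34 groups it was at 40.4, 60.2, 48.9 and 43.0 CPM in NP and 27.7, 42.8, 36.1 and 33.2 CPM in IRP (log2 change -0.47, adjusted p = 0.02358), and IRP replicate 2 overlapped the NP range. Passing with 1 treatment and not with the other is no difference between treatments, which the interaction tests.

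That difference itself was not detected for any member. In 43 of the 54 members the fall was smaller in size with PJ34 than with vehicle, and the interaction was positive in these 43 (48.7% of all genes tested) with a median of 0.21 against -0.01 over all genes. No member passed the edgeR test of the interaction (0.0% of all genes), nor did any with DESeq2 or limma-voom. Unadjusted p-values were under 0.05 for 3 of the 54 members, where 11.4% of all genes tested had one, a higher share than among the members. The 3 were Cox5a (0.43, 95% interval 0.05 to 0.81), Cox6a1 (0.47, 0.01 to 0.92) and Cox7b (0.53, 0.01 to 1.05), with adjusted p of 0.3736, 0.4225 and 0.4325. Without IRP replicate 2 the median interaction was 0.09, and no unadjusted p-value was under 0.05.

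Among the injured kidneys themselves, IRP was above IRV in sign for 51 of the 54 members (53.4% of all genes tested), but no member passed the test (0.0% of all genes). The median log2 difference was 0.21, against 0.02 over all genes, with a median of 0.18 in complex I, 0.28 in complex II, 0.22 in complex III and 0.25 in complex IV. Cox5a, a subunit of complex IV, had the lowest adjusted p. It was at 43.2, 51.7, 39.8 and 46.3 CPM in IRV and 47.9, 64.5, 60.5 and 55.9 CPM in IRP (difference 0.34, 95% interval 0.08 to 0.60, adjusted p = 0.1504), and IRP replicate 1 lay within the IRV range. Cox4i1 differed by 0.38 (0.08 to 0.69) and Cyc1 by 0.34 (0.05 to 0.63), with adjusted p of 0.1763 and 0.2255. Unadjusted p-values were under 0.05 for 7 of the 54 members with edgeR, about the share over all genes tested (13.5%), and for 8 each with DESeq2 and limma-voom, and neither of these tools called any. In no member was every IRP library above every IRV library (1.51% of all genes). The median 95% interval of a member ran from -0.14 to 0.57, so higher and unchanged levels are both within the error.

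That difference depended in part on IRP replicate 2. Without it 41 members were positive and the median was 0.12, with 0.09, 0.18, 0.12 and 0.15 for complexes I to IV, and 1 member had an unadjusted p under 0.05. Within the deep libraries alone, 53 members were positive with a median of 0.18. Within the deep libraries and without IRP replicate 2, a choice made after seeing the data, 41 were positive with a median of 0.07. Over all genes tested the medians of these fits were 0.01, 0.0 and -0.0, in that order, and the share of positive signs was not counted. The difference of the members was smaller with that library left out. Members moved together from library to library, as described below, so their signs are not independent counts.

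In uninjured kidneys PJ34 came with no detectable change of the set. In NP against NV 29 of the 54 members were positive (51.2% of all genes), the median was 0.01, and no member passed the test (0.0% of all genes) or had an unadjusted p under 0.05, while 501 of all genes (3.68%) did. DESeq2 and limma-voom called none either. The summed level was 5660 ± 310.5 CPM in NV against 5648 ± 301.3 CPM in NP, with overlapping libraries. The median 95% interval of a member ran from -0.33 to 0.37 on the log2 scale.

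On the TMM scale, the members moved as a block from library to library within each injured group. IRP replicate 1 had the lowest value of its group in 53 of the 54 members and IRP replicate 2 the highest in 51. IRV replicate 1 was lowest in 46 and IRV replicate 2 highest in 34. The median log2 difference from the NV mean was -1.16, -0.61, -0.80 and -0.68 in IRV replicates 1 to 4 and -0.87, -0.28, -0.55 and -0.57 in IRP replicates 1 to 4. Complex IV showed it with -1.11, -0.54, -0.94 and -0.88 in IRV and -0.97, -0.32, -0.56 and -0.59 in IRP. The other 3 complexes also had IRP replicate 2 highest and IRP replicate 1 lowest, and in IRV replicate 1 lowest. TMM applies 1 factor per library to all genes, 1.398 for IRP replicate 1 and 1.071 for IRP replicate 2. As a share of all counts, the members spanned 0.412% to 0.494% in IRP and 0.251% to 0.433% in IRV. How much of the block comes from that factor was not tested.

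Markers of several cell types changed in the same comparisons, and not all in one direction. All 10 proximal tubule markers fell in IRV against NV (median -0.99) and 9 of 10 in IRP against NP (-0.87), or 3 and 2 of 10 with library totals alone and 10 and 2 of 10 with the library set as a covariate. Their summed level was 9302 to 11380 CPM in NV, 9820 to 12310 in NP, 4134 to 5959 in IRV and 4326 to 8185 in IRP, and IRP replicate 2 had the highest and IRP replicate 1 the lowest value of IRP, as for the members. The 6 fibroblast markers, the 6 macrophage markers and the 5 injured tubule markers went the other way, with medians of 2.33, 3.08 and 3.45 in IRV against NV. Of these 17 genes all passed in IRV against NV, and all except 1 injured tubule marker in IRP against NP. All 5 podocyte markers rose in both comparisons (medians 0.91 and 0.80), or 2 of 5 in the shallow libraries alone with vehicle and 1 of 5 with the covariate with PJ34. Of 5 endothelial markers 2 and 3 rose (0.58 and 0.76), and 0 in each with the covariate. Of 5 thick ascending limb and distal tubule markers tested 2 fell in each comparison, with a median of -0.42 with vehicle and 0.10 with PJ34. Of 6 collecting duct markers none passed as lower, with medians of -0.30 and 0.10, and 1 rose with PJ34. In sign 1 of the 6 was positive with vehicle, where the lowest was -1.14, and 4 with PJ34. In the shallow libraries alone 1 passed as lower with vehicle. Unadjusted p-values (edgeR) were under 0.05 for 3 of the 6 with vehicle and 1 with PJ34. On library totals the medians of these segments were 0.09 and 0.22 with vehicle and 0.65 and 0.66 with PJ34. On that scale 0 and 1 of their markers rose with vehicle and 3 and 3 with PJ34. With the covariate 0 thick ascending limb and distal tubule markers fell in either comparison, and 3 in the shallow libraries alone with vehicle. Lymphocyte markers rose in 2 of 3 tested in both comparisons and adipocyte markers in 1 and 2 of 2. With the covariate it was 2 and 1 of 3 lymphocyte markers and 0 adipocyte markers in each comparison. In the shallow libraries alone 1 marker of each list rose with vehicle. Both erythrocyte markers tested passed as lower in IRP against NP (median -1.15) and not in IRV against NV (-0.18). The erythrocyte sum was 161 ± 86.0 CPM in NP and 73.6 ± 26.1 CPM in IRP. It was 81.75 ± 17.0 CPM in NV and 72.9 ± 18.3 CPM in IRV, so NP stood above the other groups. In NP against NV both markers had an unadjusted p under 0.05 (edgeR, median 1.01), and neither passed. Neither was lower in IRP against NP once the library set entered the fit. The sums of the fibroblast, macrophage and injured tubule markers in IRP were highest in replicate 1 and lowest in replicate 2: 2335 and 884.5 CPM for fibroblast, 829 and 327 CPM for macrophage, and 3528 and 1694 CPM for injured tubule markers. No fibroblast or macrophage marker was at 0 in any library. The part of this change in cell type markers in the members' change was not tested.

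**Figure D3:**
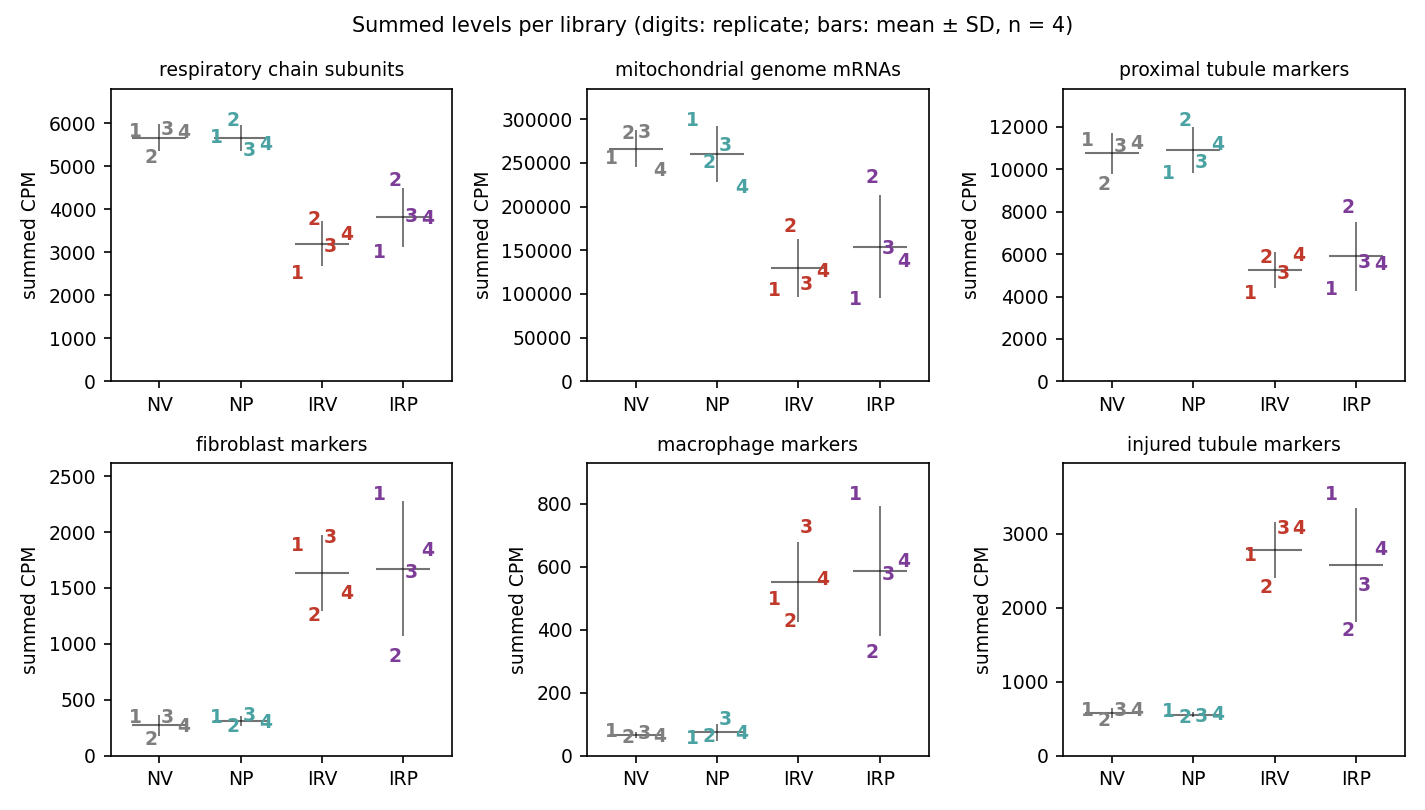
Summed TMM-scaled CPM per library of the 54 subunits, the 13 mitochondrial genome mRNAs and 4 marker lists; digits are replicate numbers and bars the group mean ± SD (n = 4). In IRP, replicate 2 is highest for subunits, mitochondrial mRNAs and proximal tubule markers and lowest for fibroblast, macrophage and injured tubule markers, and replicate 1 is the opposite.

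Most other genes of oxidative phosphorylation tested were lower too. The 13 mRNAs of the mitochondrial genome, which encode core subunits of complexes I, III and IV and parts of ATP synthase, all fell in IRV against NV (median -1.11), and 11 of 13 fell in IRP against NP (-0.84), among them mt-Nd4l (-1.28 and -1.04) and mt-Co3 (-1.30 and -0.90). They made up 20.3% to 22.6% of all counts in NV and 10.4% to 17.6% in IRV. With PJ34 the share was 18.9% to 22.85% in NP and 12.8% to 24.8% in IRP. The PJ34 groups overlapped in this share, with IRP replicate 2 above every NP library. Of 16 ATP synthase genes tested, 15 fell in both comparisons (medians -0.77 and -0.53), such as Atp5e (-1.0 and -0.64) and Atp5g3 (-0.77 and -0.53). With library totals alone Atp5g3 turned positive in IRP against NP (0.03). The exception was Atp5g2, 1 of 3 genes for subunit c, at -0.13 ± 0.75 in IRV against NV. A further 9 chain genes outside the list of 54 had 8 members lower in IRV against NV (median -0.77) and 7 in IRP against NP (-0.59), among them Ndufc2 (-1.0 and -0.60) and Uqcr11 (-0.98 and -0.54). The exception in both was Cox7a2l, a factor of respirasome assembly, with 55.4 ± 10.9 CPM in NV against 53.8 ± 8.26 CPM in IRV (log2 change -0.02 ± 0.15) and 59.4 ± 8.96 CPM in NP against 64.0 ± 2.30 CPM in IRP (0.11 ± 0.14). With library totals alone 7 and 4 of the mitochondrial mRNAs and 2 and 0 of the ATP synthase genes fell in the vehicle and PJ34 comparisons. A covariate for the library set changed this: 1 of the 13 mitochondrial mRNAs fell in IRV against NV and 0 in IRP against NP, and the shallow libraries alone gave 4 in IRV against NV. The covariate left 12 and 1 of the 16 ATP synthase genes and 5 and 1 of the 9 further chain genes lower. Atp5g2 and Cox7a2l were singled out after their values were seen.

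Of the assembly factors and other mitochondrial genes, some passed the test in each list except that of complex II assembly. Over all genes tested, 11.1% were lower in IRV against NV and 24.0% in IRP against NP. For complex I assembly 5 of 12 genes tested fell in each comparison (medians -0.53 and -0.49), led by Acad9 (-0.94 and -0.99). For complex IV assembly it was 4 and 5 of 15 (-0.40 and -0.43), led by Cox16 (-0.83 and -0.57), for complex III assembly 1 of 5 in each, a share below that of all genes with PJ34, and for complex II assembly 0 of 3 with edgeR in each, 1 of which had an unadjusted p under 0.05 in IRV against NV. Ubiquinone synthesis had 5 and 4 of 13 lower (-0.45 and -0.34), with Coq7, a hydroxylase of that pathway, at -1.02 and -0.71. Mitochondrial import and outer membrane genes had 5 of 12 lower in each (-0.31 and -0.32), with the matrix chaperone Hspa9 at -0.75 and -0.49. Many of these calls were lost in other settings. On library totals 1 complex I assembly gene fell in each comparison, 1 and 0 for ubiquinone synthesis, and 0 for complex III assembly, complex IV assembly and import; 1 and 4 import genes, 0 and 4 ubiquinone genes and 0 and 1 complex IV assembly genes rose on that scale. Under a covariate for the library set the counts in IRV against NV were 1 for complex I, 1 for complex III and 1 for complex IV assembly, 2 for ubiquinone synthesis and 4 for import, and in IRP against NP 0 for each of these lists. The shallow libraries alone gave the same counts as the covariate in IRV against NV, except 3 for import. Both rest on the same IRV libraries. Tissue-restricted isoforms (Cox4i2, Cox6a2, Cox6b2, Cox7a1, Cox7b2, Cox8b) and the paralog Ndufa4l2 were all below the filter, and Ndufa4l2 stood at 1.54 ± 0.939 CPM (NV) and 2.51 ± 0.564 CPM (IRV).

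**Figure D4:**
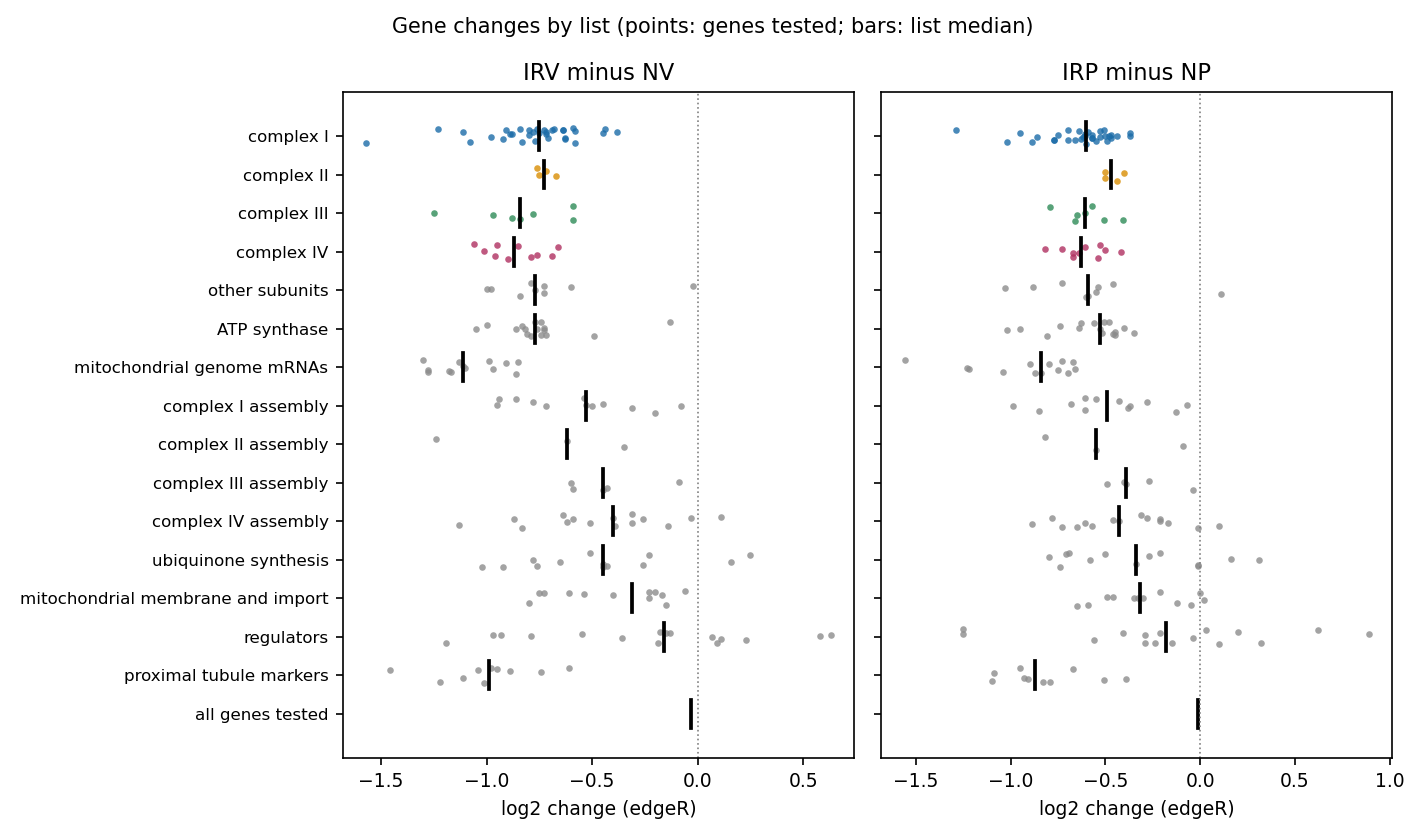
Log2 changes of the genes tested in each list (points) with the list median (black bar), in IRV against NV and IRP against NP; the bottom line gives the median of all 13614 genes tested. The 4 complexes, the other subunits, ATP synthase and the mitochondrial mRNAs have medians of -0.47 or below in both panels, and the regulators have -0.16 and -0.18. With library totals alone the median of all genes tested is 0.49 and 0.57.

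Of 16 regulators of respiratory gene expression, 3 fell and 1 rose in IRV against NV, and 4 fell and 3 rose in IRP against NP, which in both directions together is near the share over all genes tested (27.0% and 43.6%). The covariate for the library set left 1 lower and 1 higher with vehicle and none with PJ34, whereas library totals alone gave 0 and 1 lower and 6 higher in each. The coactivator Ppargc1a was at 88.2 ± 13.7 CPM (NV) against 68.1 ± 4.92 CPM (IRV) (log2 change -0.36 ± 0.13, adjusted p = 0.04965). Its nuclear receptor partner Esrra was at 64.0 ± 7.17 and 37.2 ± 4.61 CPM (-0.79 ± 0.16, adjusted p = 0.001707), and Esrrb changed by -1.19 ± 0.37. In IRP against NP these 3 fell as well, by -0.41, -0.56 and -1.25, although with library totals alone Ppargc1a (0.15 and 0.16 in the vehicle and PJ34 comparisons) and Esrra (0.02 with PJ34) turned positive. Gabpb2, which encodes a partner of the ETS factor GABP, rose from 46.9 ± 3.23 to 71.6 ± 7.26 CPM with vehicle and from 48.0 ± 5.06 to 73.8 ± 6.32 CPM with PJ34 (0.63 and 0.62). NRF1 itself, whose motif is in capitals in the promoters above, had Nrf1 mRNA at 17.1 ± 4.74 CPM (NV) against 15.6 ± 3.30 CPM (IRV) and did not pass (-0.18 ± 0.22), nor did Gabpa (0.11 ± 0.12) or the mitochondrial transcription factor Tfam (0.09 ± 0.17).

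**Figure D5:**
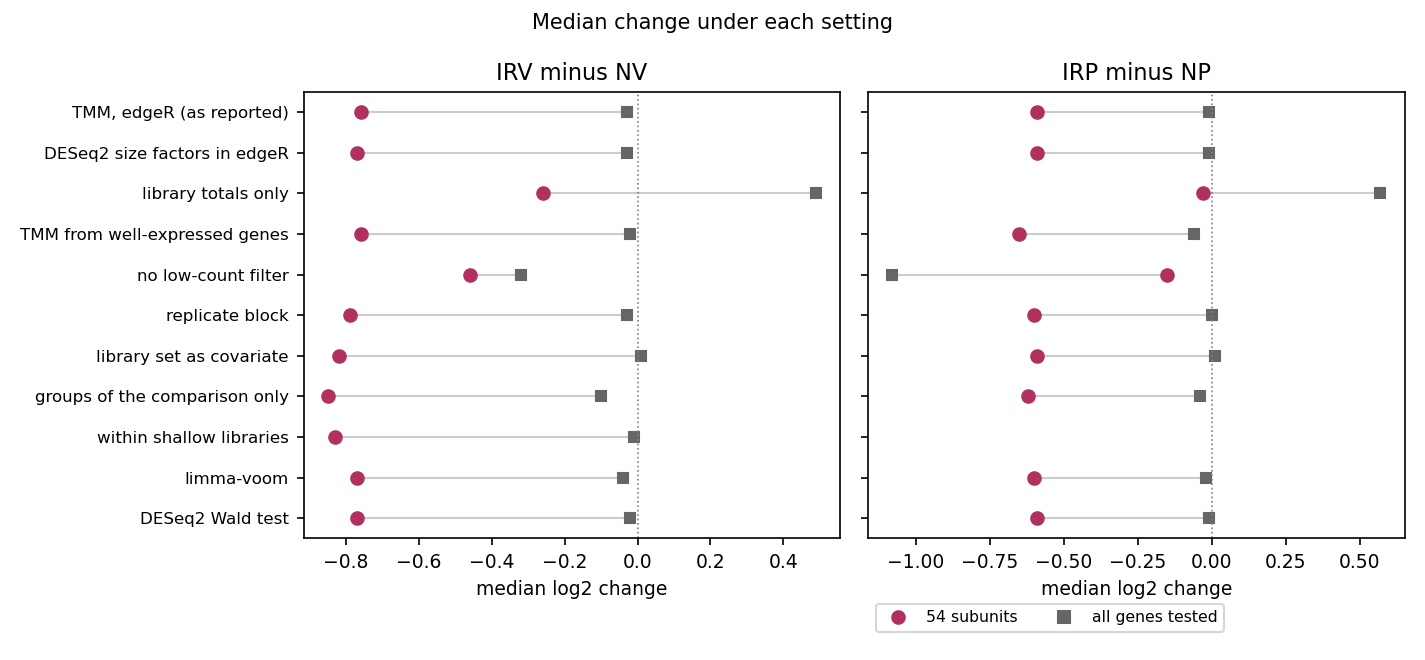
Median log2 change of the 54 subunits (circles) and of all genes tested (squares) under each way of scaling and testing, for IRV against NV and IRP against NP. The subunits lie left of all genes in every setting except IRP against NP without a low-count filter, where the medians are -0.15 and -1.08; with library totals alone the subunits are at -0.26 and -0.03.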

How the data were processed

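For 16 libraries the authors deposited expected counts of each gene, which were whole numbers, so that rounding changed none. Per the submitters' processing notes, the authors quantified with Salmon 1.3.0 on build GRCm39 after Trim Galore 0.6.6; FastQC 0.11.3 and DESeq2 1.30.1 are named as well. The deposited counts are not normalised. Salmon divides reads among similar transcripts, so counts of subunits with processed pseudogenes are uncertain. Symbols were matched by Ensembl ID for 40276 of 40472 IDs. Members and gene lists were chosen with earlier results of these data known.

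Genes were kept with filterByExpr of edgeR 4.0.16 (R 4.3.3) at a minimum count of 10. TMM-scaled counts of all 16 libraries entered 1 quasi-likelihood fit with group as the term. Adjusted p-values are Benjamini-Hochberg values over all 13614 genes tested, with a threshold of 0.05. Log2 CPM used a prior count of 2. Alternatives were other scalings, no filter, the library set as a covariate, replicate numbers as a block, each replicate left out, limma-voom (3.58.1) and DESeq2 (1.42.0). The fit was tested on simulated counts with a small set of known changes, balanced up and down, placed alike in both injured groups. These counts had no difference in content between the library sets. Recovery was thus tested for the injury comparisons in that simpler setting only. It was not tested for the PJ34 comparisons or the interaction. Shown with values in every library were, per complex, the members with the smallest p and the smallest change in IRV against NV, members whose call differed between the injury comparisons, and a few more (Ndufb4, Ndufs1, Ndufa12 and Cox5a); of each other list, up to 4 genes with the smallest p in IRV against NV, and single genes named as such (Nrf1, Gabpa and Tfam for the motifs). Replicate numbers did not pair the libraries: over 24 same-numbered pairs the correlation of deviations had a median of 0.0102, and 5 pairs exceeded 0.1.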

Additional observations from a re-analysis of the deposited data

Results flagged for a closer look

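In 4 of 84 groups of 4 libraries examined, 1 library stood far from the other 3, a rate close to the 1 in 20 that chance gives. Uqcrq reached 45.0 CPM in IRV replicate 2, against 27.8 to 30.2 CPM in the other IRV libraries. In NV, replicate 2 was far below the others in the summed level of all 54 subunits (5197 CPM), of complex III (939 CPM) and of the proximal tubule markers (9302 CPM). These NV flags share 1 library and overlapping genes. With NV replicate 2 left out, 47 of the 54 members were lower in IRV than in NV (median -0.82, against -0.03 over all genes tested). How many of all genes were lower in that fit was not counted.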

How the results depend on the processing

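Scaling and the low-count filter decided how many subunits passed. With library totals alone 11 members were lower in IRV against NV and 2 in IRP against NP (medians -0.26 and -0.03), and without the filter 16 and 3 (medians -0.46 and -0.15). A term for the library set left 1 member in IRP against NP. Other scalings, DESeq2 and limma-voom gave 48 to 52 members lower in each comparison. The share of all genes called was not counted for these, nor with 1 replicate left out or replicate numbers as a block. Leaving out 1 replicate gave 46 to 52 (medians -0.91 to -0.69) in IRV against NV, and 40, without NP replicate 2, to 50 (medians -0.69 to -0.53) in IRP against NP. It gave 0 members in the other comparisons, with medians of 0.12 to 0.32 for IRP against IRV, -0.04 to 0.04 for NP against NV and 0.09 to 0.30 for the interaction.

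Fitting replicate numbers as a block gave 51 and 49 members lower (medians -0.79 and -0.60) and 0 elsewhere, with medians of 0.22 for IRP against IRV and for the interaction; 4 of 16 libraries correlated best with a same-numbered one, so the numbers do not pair the libraries.

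Signs turned mostly with library totals alone. In IRV against NV these were Ndufa1 0.08, Ndufa7 0.14, Ndufb11 0.08, Ppargc1a 0.15, Cox7a2l 0.50 and Atp5g2 0.41. In IRP against NP they were, for complex I, Ndufa2 0.20, Ndufa3 0.01, Ndufa6 0.06, Ndufa7 0.09, Ndufa8 0.01, Ndufa9 0.03, Ndufa10 0.03, Ndufa12 0.10, Ndufb11 0.10, Ndufs5 0.01, Ndufs7 0.06, Ndufv1 0.12, Ndufv2 0.08 and Ndufv3 0.20. For complexes II to IV they were Sdha 0.12, Sdhb 0.06, Sdhc 0.07, Sdhd 0.17, Uqcrc1 0.15, Uqcrc2 0.05, Cox4i1 0.04, Cox5a 0.15, Cox6a1 0.07 and Cox7b 0.02, and among other genes Uqcr11 0.03, Atp5g3 0.03, Cox16 0.00, Esrra 0.02, Ppargc1a 0.16 and Hspa9 0.07. Without the filter Ndufa2 0.06, Ndufv3 0.06, Sdhd 0.04, Uqcrc1 0.02, Cox5a 0.02 and Ppargc1a 0.03 turned in IRP against NP, and Cox7a2l 0.30 and Atp5g2 0.19 in IRV against NV. With the set as a covariate Ndufb2 turned to 0.15 and Cox7a2l to -0.22 in IRP against NP. In IRV against NV Atp5g2 and Cox7a2l, neither of which had passed, also took the other sign in further settings. Atp5g2 was at 0.22 with the covariate, 0.19 within shallow libraries, 0.03 with the block, 0.79 with limma-voom and -0.52 to 0.94 with 1 replicate left out. Cox7a2l was at 0.00 with DESeq2, 0.01 with limma-voom and -0.18 to 0.07 with 1 replicate left out.

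Counting error limits single small members: Ndufa12 had 3 counts in 1 library, and the median over members of the lowest count in a library was 33.5. Which scale is right for these tissues was not tested.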
